A study of Mus musculus with 6 samples.

Results

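Chemokines and chemokine receptors were examined in the hearts of mice that lack cyclophilin D, the product of Ppif. Members were picked by gene symbol, with earlier results of these data already known. They were the genes whose symbol is Ccl, Cxcl, Ccr or Cxcr followed by a number, together with Cx3cl1, Cx3cr1, Xcl1, Xcr1, Ackr3 and Ackr1 (annotated on the array as Darc). The rule found 54 genes among the 19939 genes that had a probe set of their own, 34 of them ligands and 20 receptors. Where several probe sets read a gene, the one with the highest mean was used. Ccl21 and Ccl27 were read only by probe sets that name several gene copies (4 and 3), so they are not among the members.

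The study used whole hearts of mice aged 8 weeks, 3 from Ppif-/- mice and 3 from wild-type (WT) mice, with 1 Affymetrix Gene 1.0 ST array per heart. Both groups are C57BL/6 by their labels. The Ppif-/- mice carry a global knockout, present in every cell type, and were brought onto C57BL/6 by backcrossing from Sv129. The sources used here do not give the number of backcrosses, the sex of the mice or whether the WT mice were littermates. The stated purpose was to find expression differences that precede heart dysfunction.

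Chemokines are small secreted proteins that direct the movement of leukocytes. They are named by the arrangement of cysteines near their amino terminus as CC, CXC, CX3C or XC, and most signal through G protein-coupled receptors on the responding cell. Atypical receptors bind chemokines without the usual G protein signal and clear or store them. In the heart this system is best known for drawing monocytes and neutrophils into injured muscle and, through Cxcl12 and Cxcr4, for vessel and progenitor cell biology.

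Values are log2 expression per probe set, summarised by RMA, and every difference below is Ppif-/- minus WT on that scale with its standard error (SE). Levels of different genes cannot be set against each other, because each probe set has its own response. Called means an adjusted p under 0.05 in limma over all 23410 probe sets that carry a gene symbol. The arrays were alike in overall level, with medians of 6.03 to 6.11 over 35557 probe sets. Ppif itself read 6.00, 6.25 and 6.44 in the Ppif-/- hearts and 11.44, 11.28 and 11.49 in the WT hearts. It was 36.0-fold lower in Ppif-/- hearts (difference -5.17 ± 0.12, limma adjusted p = 2.97e-06), so the labels of all 6 hearts were borne out. The cardiomyocyte marker genes, all 7 of them measured, summed to a linear signal of 90130 to 91180 in Ppif-/- hearts and 89080 to 91990 in WT hearts.

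The monocyte attractant Ccl7 rose in Ppif-/- hearts, and no other chemokine or receptor gene was called. That is 1 of 54 members (1.85%), against 1.09% of all probe sets tested, 0.624% called higher and 0.461% called lower. The looser count of an unadjusted p under 0.05 took 11 members (20.4%), 5 higher and 6 lower, against 12.9% of all probe sets, 6.1% higher and 6.81% lower. The hearts of the 2 genotypes did not overlap for 11 members (20.4%), 5 higher and 6 lower, against 19.8% of all probe sets, 9.21% higher and 10.6% lower. That last share is near the background. The 11 genes of the looser count were Ccl7, Ccl2, Cxcl9, Cxcl10 and Cxcl1 with higher means in Ppif-/- hearts, and Ccr2, Ccr1, Cxcr2, Ccl6, Ccl9 and Cx3cl1 with lower means. The 11 without overlap were not the same set. They included Cxcl12 (higher) and Cxcl5 (lower) but not Cxcl1 and Cxcr2. Over all members 25 differences were above 0 and 29 below, with a median of -0.02 against -0.0023 over all probe sets, and the median absolute difference was 0.0952 against 0.0846. A log2 value of 6 in 3 or more hearts was reached by 18 members, 3 of them receptors.

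**Figure D1:**
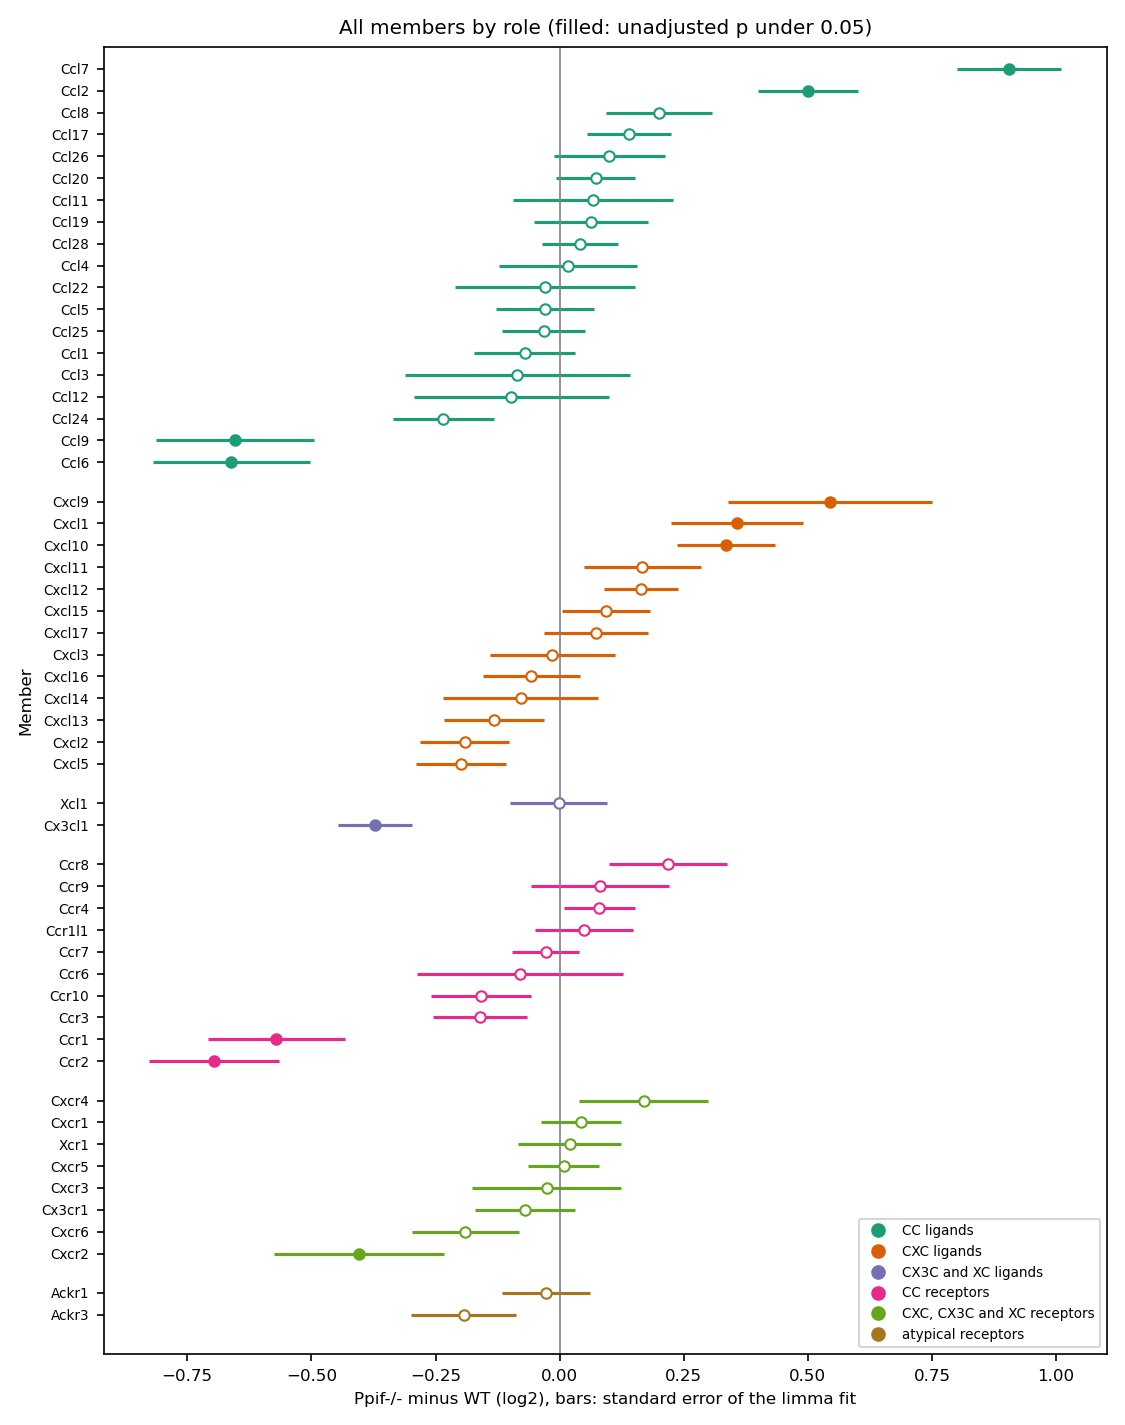
Difference between Ppif-/- and WT hearts (horizontal axis, log2, points with SE bars) for all 54 chemokine and receptor genes (vertical axis), grouped and coloured by role, with a vertical line at no difference; filled points have an unadjusted limma p under 0.05. Ccl7 at 0.91 is the highest and Ccr2 at -0.70 the lowest, and the 43 open points lie between -0.23 and 0.22.

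The CC ligands attract mainly monocytes, macrophages, eosinophils and lymphocytes. Ccl7 acts on monocytes through Ccr2 and also binds Ccr1. It read 7.09, 7.00 and 7.20 in the Ppif-/- hearts and 5.99, 6.33 and 6.25 in the WT hearts. Every Ppif-/- heart lay above every WT heart. Ccl7 rose by 0.91 ± 0.10, or 1.87-fold, with a limma adjusted p of 0.00735. It was also called in each of 15 alternative fits, with adjusted p between 0.00324 and 0.043 and differences of 0.80 to 0.98.

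Ccl2, the principal ligand of Ccr2 and the main signal that releases monocytes from bone marrow, lies next to Ccl7 on chromosome 11. It read 6.30, 6.29 and 6.57 in the Ppif-/- hearts against 5.78, 6.01 and 5.87 in the WT hearts. The groups did not overlap. The difference of 0.50 ± 0.10 missed the threshold (limma adjusted p = 0.0749).

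Ccl6 and Ccl9, rodent CC chemokines that are made largely by myeloid cells and bind Ccr1, had the opposite sign. Ccl6 read 7.05, 6.95 and 7.16 in the Ppif-/- hearts and 7.33, 7.95 and 7.87 in the WT hearts. All Ppif-/- hearts lay below all WT hearts, and WT heart 1 lay closest to them. The difference was -0.66 ± 0.16 (limma adjusted p = 0.124), and without WT heart 1 it was -0.85 with an adjusted p of 0.0169. That was the lowest adjusted p with single hearts left out, and the highest was 0.298. Ccl9 read 6.83, 7.14 and 7.37 against 7.57, 8.02 and 7.71, again without overlap, and differed by -0.65 ± 0.16 (limma adjusted p = 0.131). Neither passed the threshold with all 6 hearts in the fit. In bulk tissue of this kind, fewer cells of a type and less RNA per cell cannot be told apart.

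**Figure D2:**
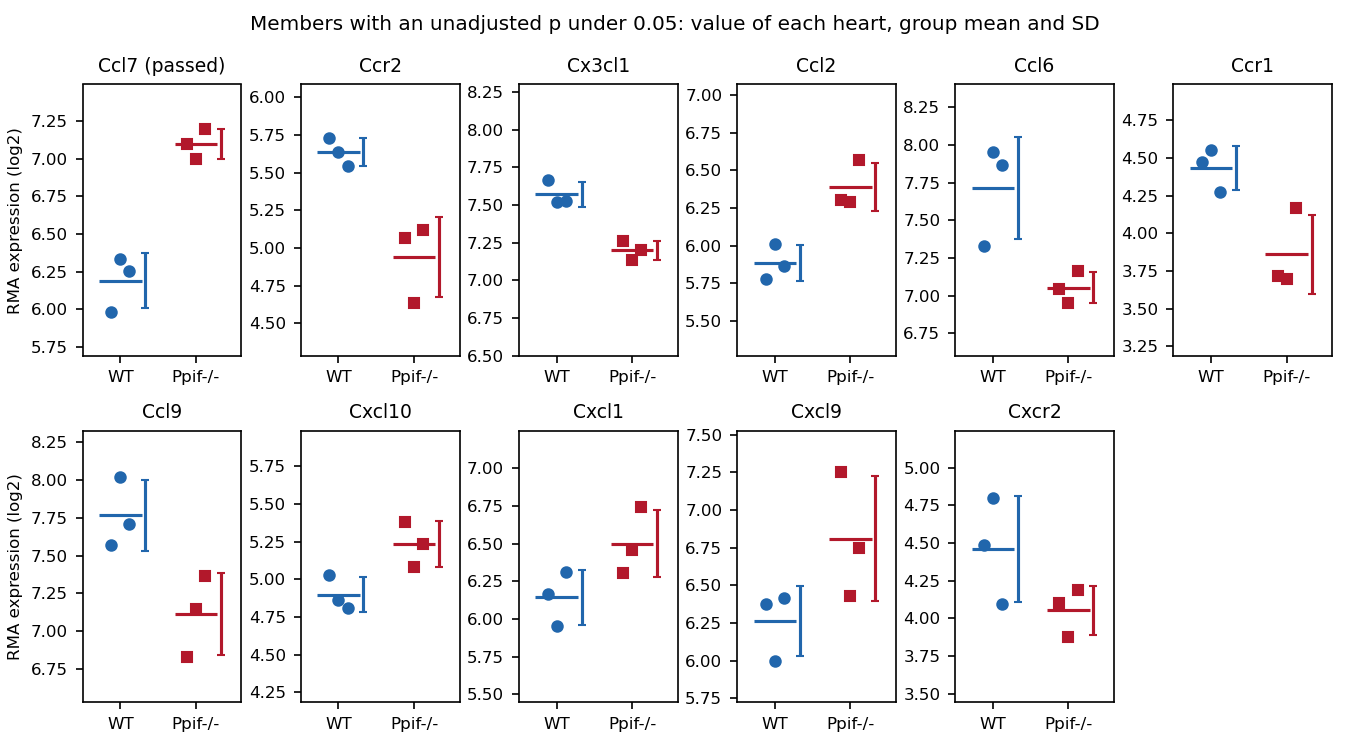
Log2 expression (vertical axes, all panels spanning the same number of log2 units) of the 11 chemokine and receptor genes with an unadjusted limma p under 0.05, 1 point per heart, WT hearts as blue circles and Ppif-/- hearts as red squares, with group means as horizontal lines and SD as bars beside them. Ccl7 and Ccl2 are higher in every Ppif-/- heart, Ccl6, Ccl9, Ccr2, Ccr1 and Cx3cl1 are lower in every Ppif-/- heart, and Cxcl1 and Cxcr2 overlap between the groups.

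The promoters of Ccl6 and Ccl9 are shown because these neighbours gave nearly the same difference. Each is the 250 bases upstream of the gene's start in RefSeq, build GRCm38.p6, minus strand, for Ccl6 chr11:83593088-83593337 and for Ccl9 chr11:83578637-83578886, written 5′ to 3′ with motif matches in capitals.

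Ccl6: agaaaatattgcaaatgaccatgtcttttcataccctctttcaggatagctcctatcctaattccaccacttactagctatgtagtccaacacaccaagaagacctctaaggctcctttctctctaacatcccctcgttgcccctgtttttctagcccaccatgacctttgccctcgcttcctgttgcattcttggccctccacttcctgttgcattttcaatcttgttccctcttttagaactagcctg

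Ccl9: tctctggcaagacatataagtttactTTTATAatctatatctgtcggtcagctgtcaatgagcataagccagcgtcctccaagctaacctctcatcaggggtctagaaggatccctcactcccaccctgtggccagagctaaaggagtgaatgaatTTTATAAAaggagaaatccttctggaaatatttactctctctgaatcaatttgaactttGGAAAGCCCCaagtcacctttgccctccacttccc

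The Ccl9 window holds 1 match to the NF-kB consensus, 35 to 26 bases before the start, and TATAAA matches on both strands, at 224 to 219, 94 to 89 and 92 to 87 bases before it, the last pair overlapping. The Ccl6 window holds no match to the 6 motifs searched. These were the NF-kB consensus, the core of the interferon-stimulated response element (ISRE; GAAA, any 2 bases, GAAA), the interferon gamma element TTCNNNGAA, the AP-1 site TGACTCA or TGAGTCA, the PU.1 core GAGGAA and TATAAA, each on both strands. Entries existed for 40 of the 54 members, in 42 windows. The NF-kB consensus was in 23.8% of the members' windows and in 7.25% of 32851 windows of all genes, and TATAAA in 31% and 12.4%. GAGGAA, the PU.1 core, was in 26.2% and 23.3%. A match is a run of letters and does not show binding.

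None of the other 15 CC ligands reached an unadjusted p under 0.05, with differences between -0.23 and 0.20. Ccl11 (eotaxin), an attractant of eosinophils that fibroblasts can make, read 7.34, 6.74 and 6.71 in the Ppif-/- hearts and 6.79, 6.93 and 6.86 in the WT hearts. Ppif-/- heart 1 was the highest and the other two were the lowest, and the difference was 0.07 ± 0.16. Ccl24, another eotaxin, differed by -0.23 ± 0.10 (limma adjusted p = 0.393). Ccl5 (RANTES), which is made by T cells and platelets, differed by -0.03 ± 0.10, and Ccl19, a ligand of Ccr7 that guides lymphocytes in lymphoid tissue, by 0.06 ± 0.12. The groups overlapped for all 4 of these genes. Ccl19 was read by 5 probe sets, with differences between 0.06 and 0.07. Ccl12 and Ccl8, the other monocyte chemoattractant proteins of the mouse, differed by -0.10 ± 0.20 and 0.20 ± 0.11. Ccl3 and Ccl4, macrophage inflammatory proteins, differed by -0.09 ± 0.23 and 0.02 ± 0.14.

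Among the 13 CXC ligands 0 were called, and 3 had an unadjusted p under 0.05, all with higher means in Ppif-/- hearts. That is 23.1%, against 12.9% of all probe sets, with 6.1% higher. Cxcl9 and Cxcl10 are interferon-induced ligands of Cxcr3, the receptor of activated T cells and NK cells. Cxcl9 read 7.25, 6.43 and 6.75 in the Ppif-/- hearts and 6.38, 6.00 and 6.42 in the WT hearts, with Ppif-/- heart 2 barely above WT heart 3. The difference was 0.54 ± 0.21 (limma adjusted p = 0.317), and without Ppif-/- heart 1 it was 0.32. Cxcl10 read 5.38, 5.08 and 5.24 against 5.03, 4.86 and 4.81. Its groups did not overlap, and the difference was 0.33 ± 0.10 (limma adjusted p = 0.202). Cxcl11, the third ligand of Cxcr3, differed by 0.17 ± 0.12, with overlapping groups.

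The windows of Cxcl9 and Cxcl10 are given in the same way because both genes are textbook interferon targets. They are the minus strand of chr5:92328080-92328329 and chr5:92348890-92349139, with motif matches in capitals.

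Cxcl9: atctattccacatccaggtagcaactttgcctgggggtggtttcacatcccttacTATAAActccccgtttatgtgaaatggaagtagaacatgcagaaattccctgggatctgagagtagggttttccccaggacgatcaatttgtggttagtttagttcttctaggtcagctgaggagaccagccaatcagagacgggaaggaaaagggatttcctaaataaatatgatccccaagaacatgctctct

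Cxcl10: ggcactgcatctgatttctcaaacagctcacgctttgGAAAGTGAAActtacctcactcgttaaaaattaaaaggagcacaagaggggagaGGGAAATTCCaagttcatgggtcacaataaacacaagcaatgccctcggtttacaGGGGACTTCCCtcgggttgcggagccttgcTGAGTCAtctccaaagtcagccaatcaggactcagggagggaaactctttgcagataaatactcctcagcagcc

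The Cxcl10 window holds NF-kB consensus matches at 159 to 150 bases and at 104 to 94 bases before the start, where matches on opposite strands overlap. It also holds the ISRE core at 213 to 204 bases and the AP-1 letters at 74 to 68 bases. The ISRE core was in 2.98% of all windows and 7.14% of the members' windows, and the AP-1 letters in 4.46% and 7.14%. The Cxcl9 window holds TATAAA at 195 to 190 bases and none of the other motifs, TTCNNNGAA included, which was in 7.02% of all windows and 9.52% of the members' windows.

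Cxcl1 is a ligand of Cxcr2 that attracts neutrophils. It read 6.30, 6.46 and 6.74 in the Ppif-/- hearts and 6.17, 5.95 and 6.31 in the WT hearts. The lowest Ppif-/- heart and the highest WT heart were level, and the difference was 0.36 ± 0.13 (limma adjusted p = 0.311). The other Cxcr2 ligands did not share its sign. Cxcl2 differed by -0.19 ± 0.09, Cxcl5 by -0.20 ± 0.09 and Cxcl3 by -0.01 ± 0.13, all at group means of 3.97 to 4.73, where RMA compresses differences. Cxcl5 read 3.99, 3.94 and 3.99 in the Ppif-/- hearts and 4.13, 4.35 and 4.03 in the WT hearts, without overlap. Cxcl2 and Cxcl3 overlapped between the groups.

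Cxcl12 holds progenitor and immune cells in place through Cxcr4 and is made by endothelial and stromal cells. It read 9.87, 9.70 and 9.68 in the Ppif-/- hearts and 9.58, 9.59 and 9.59 in the WT hearts. The WT hearts were nearly identical, all below the Ppif-/- hearts, yet the difference was small at 0.16 ± 0.07 (limma adjusted p = 0.41). Cxcl14, a chemokine whose receptor is not settled, read 9.96, 9.47 and 9.34 against 9.53, 9.76 and 9.72. Its Ppif-/- hearts spread on both sides of the WT hearts, with a difference of -0.08 ± 0.16. Cxcl16, a membrane-anchored chemokine and scavenger receptor that binds Cxcr6, differed by -0.06 ± 0.10. The remaining CXC ligands, Cxcl13, Cxcl15 and Cxcl17, differed by -0.13, 0.09 and 0.07.

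Cx3cl1 (fractalkine) is tethered to the membrane of endothelial and other cells and is shed as a soluble attractant for cells that carry Cx3cr1. It read 7.26, 7.13 and 7.20 in the Ppif-/- hearts and 7.67, 7.52 and 7.53 in the WT hearts. The groups were tight and did not overlap. The difference of -0.37 ± 0.07 missed the threshold (limma adjusted p = 0.0718). Xcl1 (lymphotactin), a product of T cells and NK cells, did not separate the groups and differed by -0.0022 ± 0.0982.

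No receptor was called. The 3 with an unadjusted p under 0.05 were Ccr2, Ccr1 and Cxcr2, receptors of monocytes, myeloid cells and neutrophils, and all had lower means in Ppif-/- hearts. They were 15% of the 20 receptors, against 12.9% of all probe sets, with 6.81% lower. The groups did not overlap for 10% of the receptors, against 19.8% of all probe sets. Ccr2, which carries inflammatory monocytes out of bone marrow, read 5.07, 4.64 and 5.12 in the Ppif-/- hearts and 5.73, 5.64 and 5.54 in the WT hearts. All Ppif-/- hearts lay below all WT hearts. The difference of -0.70 ± 0.13, a 1.62-fold lower value, missed the threshold narrowly (limma adjusted p = 0.0587).

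Ccr1 binds Ccl6, Ccl7 and Ccl9 among others. It read 3.72, 3.70 and 4.16 in the Ppif-/- hearts and 4.47, 4.55 and 4.27 in the WT hearts. The groups did not overlap, with Ppif-/- heart 3 closest to the WT hearts. The difference was -0.57 ± 0.14 (limma adjusted p = 0.129), and without Ppif-/- heart 3 it was -0.72 with an adjusted p of 0.0439. With single hearts left out the adjusted p of Ccr1 ran from 0.0439 to 0.304. Cxcr2 read 4.10, 3.87 and 4.19 against 4.48, 4.80 and 4.09. WT heart 3 lay among the Ppif-/- hearts, and the difference was -0.40 ± 0.17 (limma adjusted p = 0.378). It was -0.23 without WT heart 2 and -0.59 without WT heart 3. Ccr2, Ccr1 and Cxcr2 were all below 6 in every heart.

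The 3 receptors that reached a log2 value of 6 did not separate the groups. Cxcr4, the receptor of Cxcl12, read 8.74, 8.69 and 8.48 in the Ppif-/- hearts and 8.44, 8.24 and 8.72 in the WT hearts, with overlap and a difference of 0.17 ± 0.13, which ran from 0.054 without WT heart 2 to 0.30 without WT heart 3. Cx3cr1, the receptor of Cx3cl1 on resident macrophages and patrolling monocytes, read 7.05, 7.19 and 7.11 against 7.09, 7.07 and 7.39, and differed by -0.07 ± 0.10. The groups overlapped for both. Ackr3, an atypical receptor that scavenges Cxcl12, differed by -0.19 ± 0.11 with overlapping groups (limma adjusted p = 0.494). Ackr1, the chemokine receptor of red cells and venules, differed by -0.03 ± 0.09.

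Lymphocyte and dendritic cell receptors did not separate the groups. Cxcr3 differed by -0.03 ± 0.15, Cxcr6 by -0.19 ± 0.11, Ccr7 by -0.03 ± 0.07 and Ccr10, a receptor of skin- and gut-homing lymphocytes, by -0.16 ± 0.10. The other CC receptors, Ccr3, Ccr4, Ccr6, Ccr8, Ccr9 and Ccr1l1, differed by -0.16 to 0.22. The other receptors of the CXC and XC type, Cxcr1, Cxcr5 and Xcr1, differed by 0.04, 0.01 and 0.02.

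Receptors were set beside the ligands they are known to bind, in 33 pairs over 17 receptors. Ccr2 was lower by its mean (-0.70) while its ligands Ccl7 (0.91) and Ccl2 (0.50) were higher and its ligand Ccl12 was at -0.10. Ccr1 (-0.57) stood beside Ccl6 (-0.66) and Ccl9 (-0.65) with the same sign and beside Ccl7 with the opposite sign. Cxcr3 at -0.03 stood beside Cxcl9 (0.54), Cxcl10 (0.33) and Cxcl11 (0.17), all above 0. Cxcr2 (-0.40) stood beside Cxcl1 (0.36) and 3 ligands below 0. Cx3cl1 at -0.37 stood beside Cx3cr1 at -0.07. Of these values the 1 for Ccl7 passed the threshold, and differences between a ligand and its receptor were not tested.

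**Figure D3:**
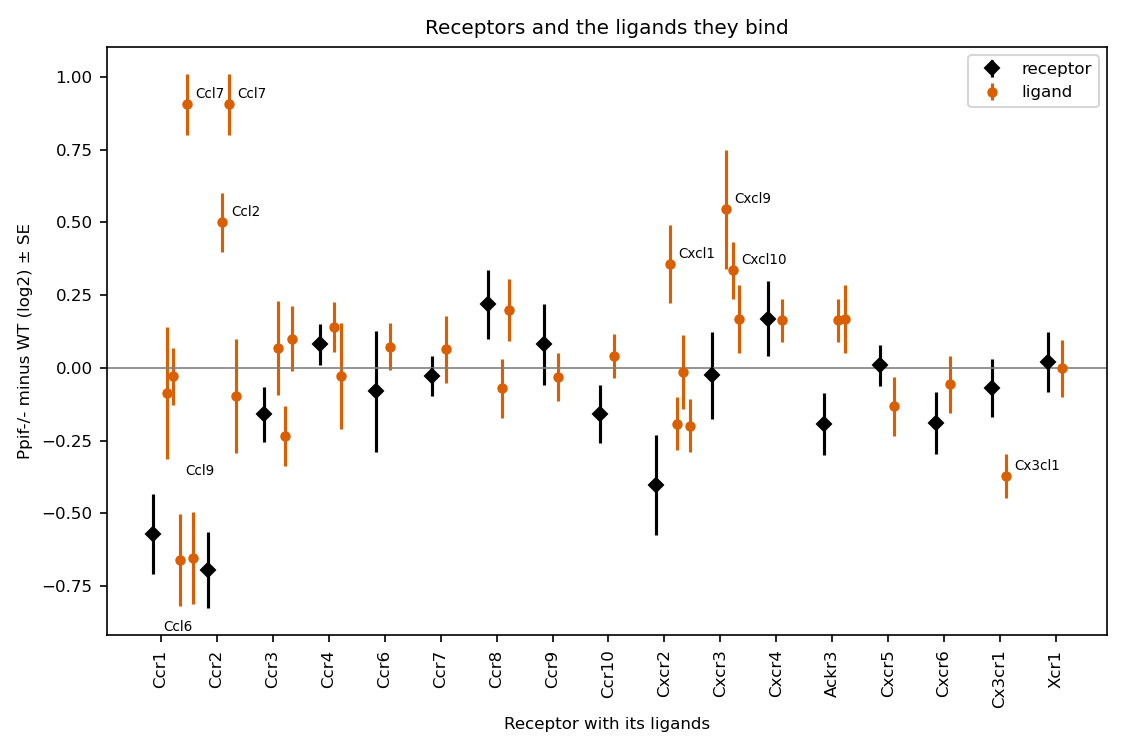
Difference between Ppif-/- and WT hearts (vertical axis, log2, with SE bars) for 17 receptors (black diamonds) and the ligands each is known to bind (orange circles), receptors along the horizontal axis; a ligand of several receptors appears at each. Ccr2 lies at -0.70 below its ligands Ccl7 and Ccl2, whereas Ccr1 lies at -0.57 close to its ligands Ccl6 and Ccl9.

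Many chemokine genes lie in clusters, and 9 runs of neighbouring members were found along the chromosomes of GRCm38.p6. As a background for the counts of neighbours, 1.09% of all probe sets tested were called. An unadjusted p under 0.05 was reached by 12.9%, 6.1% higher and 6.81% lower. The monocyte chemoattractant run on chromosome 11, in the order Ccl2, Ccl7, Ccl11, Ccl12, Ccl8 and Ccl1, held Ccl7 and Ccl2 at its start, while the other 4 genes differed by -0.10 to 0.20. Its 20 measured neighbours outside the family included 1 called gene, Unc45b, a myosin chaperone of striated muscle, at -0.55 (limma adjusted p = 0.0148). The second run on chromosome 11, Ccl5, Ccl9, Ccl6, Ccl3 and Ccl4, held Ccl9 and Ccl6 side by side. None of its 21 neighbours was called, and 6 had an unadjusted p under 0.05, all lower. These included Wfdc17 at -0.42 (limma adjusted p = 0.0582) and Mmp28, a matrix metalloproteinase, at -0.60. Unc45b, Wfdc17 and Mmp28 were chosen after their values were seen.

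On chromosome 5, Cxcl9, Cxcl10 and Cxcl11 formed a run in which all 3 means were higher in Ppif-/- hearts, while 0 of 21 neighbours were called and 3 had an unadjusted p under 0.05, all lower. The other large run of that chromosome held Cxcl5, Cxcl3, Cxcl15, Cxcl1 and Cxcl2. Cxcl1 was at 0.36 and the other members at -0.20 to 0.09. The 22 neighbours of this run included 1 called gene, Adamts3, a procollagen protease, at 0.65 (limma adjusted p = 0.0208). Among them 5 had an unadjusted p under 0.05, 3 higher and 2 lower. Those 5 included Pf4 at 0.32 and Ppbp at -0.46, CXC chemokines that the naming rule left out. Adamts3 was chosen after its values were seen. The receptor run on chromosome 9, Ccr9, Cxcr6, Xcr1, Ccr1, Ccr1l1, Ccr3 and Ccr2, held Ccr1 and Ccr2 among genes at -0.19 to 0.08. None of its 11 neighbours had an unadjusted p under 0.05. Whether Sv129 sequence remains near any run was not tested.

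**Figure D4:**
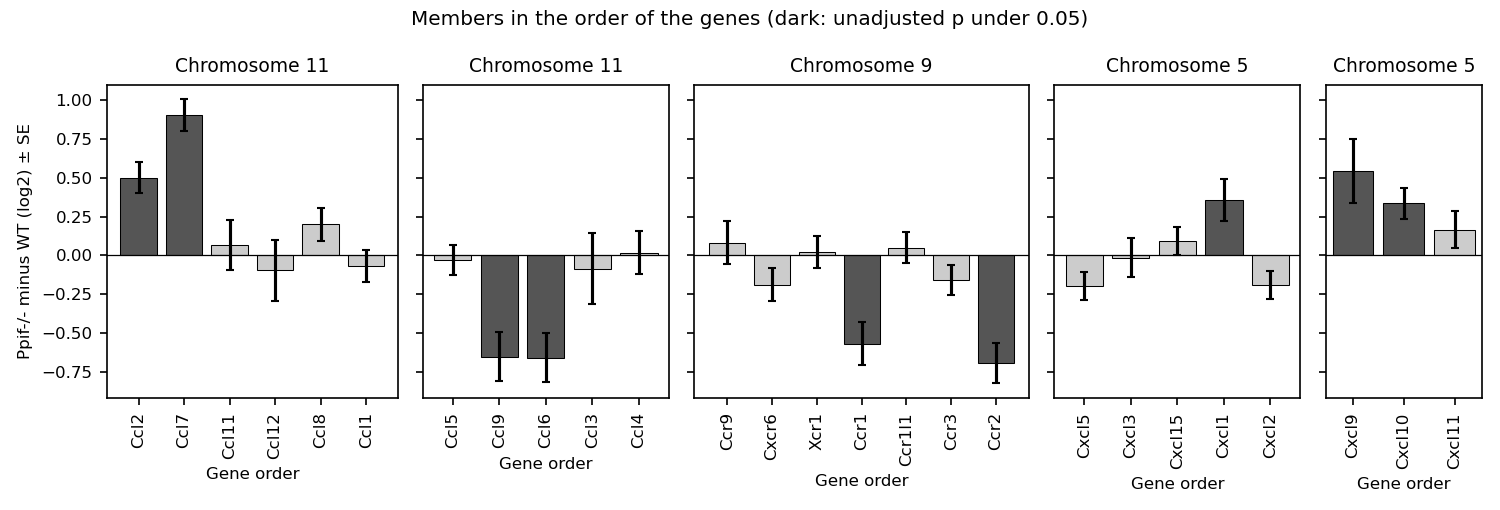
Difference between Ppif-/- and WT hearts (bars from 0, vertical axis, log2, with SE) for members in 5 runs, in gene order along the chromosome (horizontal axis, not to distance); dark bars have an unadjusted limma p under 0.05. Ccl2 with Ccl7, Ccl9 with Ccl6 and the run from Cxcl9 to Cxcl11 are adjacent genes of like sign, and Ccr1 and Ccr2 lie apart in the receptor run.

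The machinery around the receptors was described through 4 lists holding 68 measured genes. Of these 1.47% were called and 26.5% had an unadjusted p under 0.05, against 1.09% and 12.9% of all probe sets tested. Of 26 genes for receptor signalling, 1 rose and 0 fell. Rgs2, which shortens G protein signals and acts on Gq in the heart and vessels, read 8.89, 9.22 and 9.11 in the Ppif-/- hearts and 8.30, 8.12 and 8.44 in the WT hearts. It rose by 0.78 ± 0.11 (limma adjusted p = 0.0209), without overlap, and with single hearts left out its adjusted p ran from 0.0213 to 0.103, with the call lost without Ppif-/- heart 2 or 3 or WT heart 1 or 2. The median of that list was -0.01.

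A list of 10 further genes linked to chemokines held Pf4, Ppbp, Ackr2, Ackr4, Ccrl2, Cmklr1, Gpr35, Mif, Cmtm3 and Cmtm4. The naming rule left these out. In this list 0 were called and 5 (50%) had an unadjusted p under 0.05, against 12.9% of all probe sets. Pf4, Cmtm3 and Ccrl2 were the 3 higher, and Ackr2 and Ppbp the 2 lower. Ackr2, an atypical receptor that degrades inflammatory CC chemokines, differed by -0.30 ± 0.08 without overlap (limma adjusted p = 0.151). Of 12 proteases and proteoglycans that cut or hold chemokines 0 were called and the median was 0.09. An unadjusted p under 0.05 was reached by 4 (33.3%), all higher, against 12.9% of all probe sets, 6.1% higher. Sdc4, a heparan sulphate carrier, had the smallest p at 0.34 ± 0.09 (limma adjusted p = 0.153). Of 20 inducers of chemokines 0 were called, 5 (25%) had an unadjusted p under 0.05 (3 higher, 2 lower), and the list median was 0.01. Il1a, an alarm cytokine, differed by 0.26 ± 0.07 (limma adjusted p = 0.153).

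Markers of the cells that carry these receptors were read beside them, in 16 lists with 90 measured genes. Of the 50 leukocyte and platelet markers 2% were called and 22% had an unadjusted p under 0.05. The shares were 7.5% and 17.5% for the other 40 markers, against 1.09% and 12.9% of all probe sets tested. Of the 12 macrophage markers 1 rose, Cd68 at 0.56 ± 0.09 (limma adjusted p = 0.0394), a lysosomal protein of macrophages, and 0 fell. Their summed linear signal was 3751 to 4195 in Ppif-/- hearts and 3648 to 3732 in WT hearts, so the groups did not overlap, and the list median was 0.14. The Cd68 call was lost when any 1 heart was left out (adjusted p 0.0551 to 0.145). Cd163 and Mertk, both expressed by resident macrophages, differed by -0.53 and 0.38, neither of them called, and both were chosen after their values were seen.

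Of 5 measured monocyte markers 0 were called and 0 had an unadjusted p under 0.05, with summed signals of 945.1 to 1040 and 939.3 to 1040. F13a1 and Fn1, at mean log2 values of 9.18 and 8.46, made up most of these sums. Plac8, Chil3 and S100a4 had means of 3.52, 4.34 and 5.03, so the sums show little of them. Ly6c2 was not measured, and whether monocyte content differed was not tested. Plac8 had the smallest p, at 0.22 ± 0.10. Of 7 neutrophil markers 0 were called and 2 had an unadjusted p under 0.05, both lower, Retnlg at -0.31 ± 0.10 among them, and the list summed to 207.9 to 241 against 224.8 to 292.8. These overlap, as the values of the neutrophil receptor Cxcr2 do. Of 6 T cell, 5 B cell, 6 NK cell, 6 dendritic cell and 3 platelet markers 0 were called. The smallest p in each belonged to Cd8a at -0.16, Cd79a at -0.29, Gzma at 0.21, Zbtb46 at -0.19 and Gp9 at 0.15.

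Of the markers of resident tissue cells, 3 fell. They were the fibroblast receptor Pdgfra at -0.44 (limma adjusted p = 0.0246), the smooth muscle protein Tagln at -0.51 (limma adjusted p = 0.0332) and the Schwann cell cadherin Cdh19 at -0.73 (limma adjusted p = 0.0107). Pdgfra and Tagln lost the call when any 1 heart was left out, with adjusted p of 0.0693 to 0.0991 and 0.0537 to 0.122, and Cdh19 lost it when all probe sets were tested (0.0511). The same lists held genes with higher means in Ppif-/- hearts, none of them called. Among fibroblast markers the collagens Col3a1, Col1a2 and Col1a1 differed by 0.38, 0.27 and 0.21, and the pericyte gene Rgs5 differed by 0.27 ± 0.07 (limma adjusted p = 0.129). These 4 genes were chosen after their values were seen. In all, 1 of 7 fibroblast, 1 of 6 pericyte and smooth muscle and 1 of 2 measured Schwann cell markers were called. Of 7 endothelial, 5 lymphatic endothelial, 7 cardiomyocyte, 4 adipocyte and 2 red cell markers 0 were called. The smallest p in these belonged to Tek at -0.18, Lyve1 at -0.20, Ryr2 at -0.19, Lep at -0.13 and Alas2 at 0.38. Endothelial markers summed to 7881 to 8926 in Ppif-/- hearts and 8378 to 8906 in WT hearts. No listed marker was at 0, since RMA gives no zeros. The mean log2 value of a list stood apart between the groups for 5 of the 16 lists. It was higher in Ppif-/- hearts for macrophage (7.93 to 8.03 against 7.84 to 7.86) and red cell markers (6.817 to 6.906 against 6.505 to 6.808, with 2 genes). It was lower for B cell (4.88 to 5.05 against 5.08 to 5.13), pericyte and smooth muscle (9.32 to 9.35 against 9.47 to 9.59) and Schwann cell markers (5.78 to 6.08 against 6.30 to 6.33, with 2 genes). As summed signals, B cell markers (160.6 to 181.1 against 177.8 to 188.3) overlapped. So did pericyte and smooth muscle markers (6972 to 7141 against 6759 to 7528). Of all single probe sets tested 19.8% did not overlap, and no such share was taken for lists. The part of any cell type in the values of Ccl7, Ccl6, Ccl9, Ccr2 and Cx3cl1 was not tested.

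**Figure D5:**
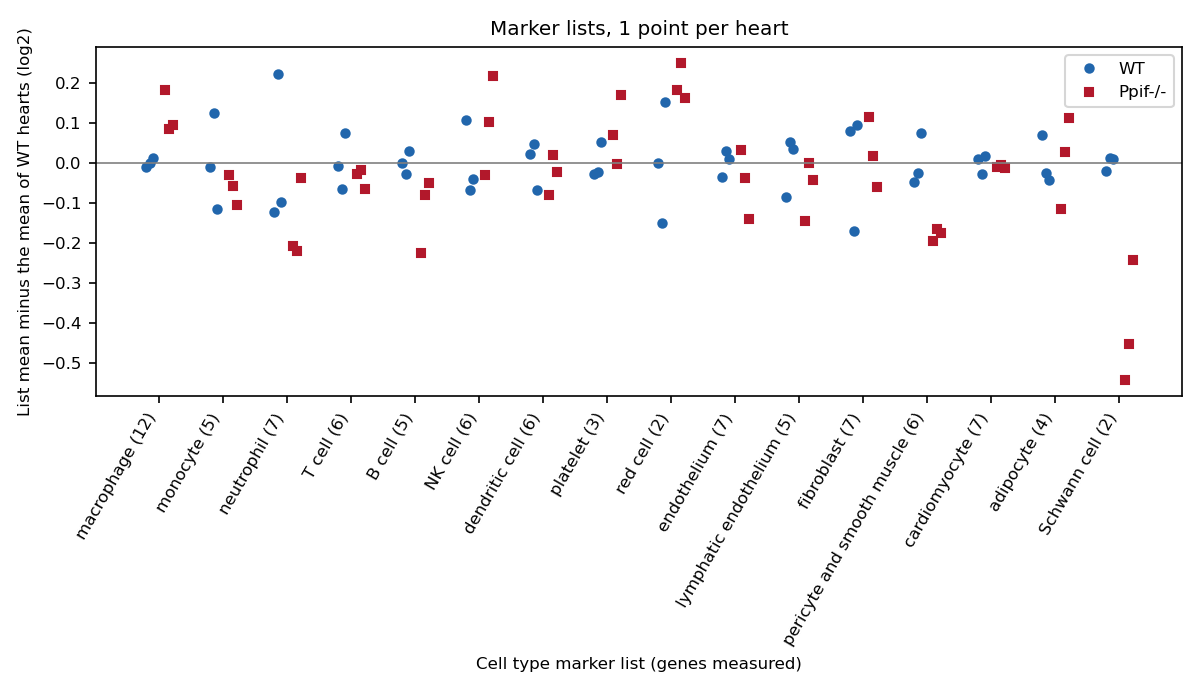
Mean log2 value of each marker list minus the mean of the WT hearts (vertical axis) for 16 cell type lists (horizontal axis, genes measured in brackets), 1 point per heart, WT as blue circles and Ppif-/- as red squares. The macrophage and red cell lists are higher in all Ppif-/- hearts, the B cell, pericyte and smooth muscle, and Schwann cell lists are lower in all of them, and the other 11 lists overlap between the groups.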

How the data were processed

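Total RNA from 6 hearts was hybridised to 1 array each. The authors deposited log2 values for each probe set, made with RMA per the submitters' processing notes. The sources used here do not give its version or filters. Differences at low signal are compressed by RMA. No batch, scan date or detection call was given, so batches could not be tested, and the number of arrays limits the precision. Separate hearts are stated, so p-values measure the spread between hearts.

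Symbols came from the platform annotation and the gene table of GRCm38.p6 (1 symbol for 21789 probe sets, several for 1621, none for 12147). All 23410 probe sets with a symbol entered 1 fit by genotype (lmFit, then eBayes) in limma 3.58.1 under R 4.3.3, with 2-sided tests, no covariates, Benjamini-Hochberg adjustment over all and a threshold of 0.05. For 3 hearts against 3, the smallest p of an exact permutation test is 0.1, so none was run.

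The members, lists and rules were chosen with earlier results of these data known. Genes named were those with an unadjusted p under 0.05, the 3 with the highest mean and 2 with the smallest p in each role, well-known pairs, and in each list those called or else the 1 with the smallest p. A few further genes are given as values to complete a role or list. List signals are sums of 2 to the log2 value. Neighbours are up to 10 genes on each side of a run, and a run allows gaps of up to 10 genes. Promoters are RefSeq windows of 250 bases, with no entry used for Ccl7 and Ccl2.

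The replicate numbers were checked for pairing. Deviations from the group means of hearts with the same number correlated at -0.077, -0.061 and 0.118, so the numbers were not taken as pairs. On simulated arrays of this comparison (23410 probe sets, 200 changed), the fit recovered 44% of changes of log2 size 0.5 and 82% of size 1, with 4.68% false calls, and made 0 calls when nothing was changed. The simulated noise was independent between probe sets, and changes kept their full size at low signal. These rates therefore need not hold for the real arrays. Alternatives were the replicate block, brighter probe sets (6 or more in 3 arrays), the whole table, 1 probe set for each gene, quantile normalisation, median centring, trended or robust eBayes, array weights, leaving out each heart, and a second probe set per gene.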

Additional observations from a re-analysis of the deposited data

How the results depend on the processing

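The main fit called 254 probe sets. The total was 160 with the replicate number as a block, 412 among brighter probe sets and 131 with all probe sets tested. It was 453 with an intensity trend and 386 with array weights. Each total belongs to its own fit, and how many of the 254 stayed called was not counted. With single hearts left out 131 to 171 were called. The 1 chemokine gene called, Ccl7, became 3 genes among brighter probe sets (with Ccl2 and Cx3cl1), 2 with quantile normalisation, centring or a trend (with Ccr2), and 4 with array weights (with Ccl2, Ccr2 and Cx3cl1), and 1 to 2 with single hearts left out. The second was Ccr1 without Ppif-/- heart 3 and Ccl6 without WT heart 1. The block left 1 chemokine gene called, Ccl7. Of the 47 genes that the naming rule took 7 were called, 2 with the block (Ppif and Ccl7), 2 with all probe sets tested, 10 with array weights and 3 to 4 with single hearts left out. Rgs2 and Cdh19 lost the call with the block (adjusted p = 0.0605 and 0.0541) and with all probe sets tested (0.084 and 0.0511). The cause of these shifts was not tested. No member with an unadjusted p under 0.05 changed sign in any alternative that tested it. These numbered 15, or 14 for Ccr2, Ccr1, Cxcr2 and Cxcl10, which were not among the brighter probe sets. The alternatives reuse the hearts that gave the small p, so a stable sign is no separate support. Of the other 43 members, 25 changed sign in at least 1 alternative. Among those named, differences with single hearts left out ran from -0.14 to 0.18 for Ccl11, -0.15 to 0.10 for Cxcr3, -0.081 to 0.056 for Xcl1, -0.11 to 0.017 for Ackr1, -0.15 to 0.039 for Cxcl16, -0.26 to 0.047 for Cxcl14, -0.11 to 0.058 for Ccl5, -0.13 to 0.035 for Cx3cr1 and -0.062 to 0.17 for Ccl19. Without a change of sign, the range was -0.59 to -0.23 for Cxcr2, 0.054 to 0.30 for Cxcr4, 0.24 to 0.46 for Cxcl1, 0.32 to 0.74 for Cxcl9, 0.10 to 0.20 for Cxcl12, -0.29 to -0.11 for Ackr3, -0.24 to -0.068 for Ccr10 and -0.27 to -0.082 for Cxcr6. Of the 20 receptors 17, and of all 54 members 36, did not reach 6 in 3 hearts, and whether low signal limited the calls was not tested.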
